A study of Saccharomyces cerevisiae with 5 samples.

Results

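Pre-mRNA splicing and Sm/LSm genes of budding yeast (Saccharomyces cerevisiae) were followed in RNA from cells given 20% or 2% glucose. The genes were chosen by name: those whose standard name in the scanner files is PRP, SNU, LSM, SMD or SMX followed by digits, together with SMB1 and SME1. This gave 45 of the 6205 open reading frames (ORFs) on the arrays. Of these, 44 have a role in splicing or in an Sm or Lsm ring. The other, YMR302C, is listed as PRP12 on the array and as YME2 in the RefSeq gene table. The scanner files annotate it as an exonuclease of rRNA processing at the mitochondrial inner membrane, with no mention of splicing, and it is called PRP12/YME2 here.

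Cells had grown overnight in YP medium with 2% glucose and were then diluted to an OD600 of 0.1, either into the same medium or into YP with 20% glucose. They were collected after 1 hour. Each of 5 microarrays carried RNA of both media in 2 dyes, with the 20% RNA in Cy3 on arrays 1, 3 and 4 and in Cy5 on arrays 2 and 5. The labels name no strain and do not say whether the arrays come from separate cultures. The p-values therefore reflect how these arrays scatter, and that scatter may be technical. Scanner files were used for arrays 4 and 5, and arrays 1 to 3 and arrays 4 and 5 are treated below as 2 sets.

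The spliceosome removes introns from pre-mRNA. It is built from the U1, U2, U4, U5 and U6 small nuclear RNAs and their proteins (snRNPs), is driven forward by RNA helicases and is remodelled by the Prp19 complex. Sm proteins form a ring around U1, U2, U4 and U5 RNA. Related Lsm proteins form a nuclear ring on U6 RNA that contains Lsm8, and a cytoplasmic ring that contains Lsm1 and acts in mRNA decay. In budding yeast only a minority of genes has introns, but ribosomal protein genes are rich in them, and several splicing proteins, such as Snu13 and Prp43, also serve in ribosome or small nucleolar RNA production.

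All values are log2 ratios, RNA labelled 20% over RNA labelled 2% glucose, and fitted values carry the standard error (SE) of a limma fit over the 5 arrays. The direction rests on the dye labels alone and is the opposite of the signs in the deposited table. Genes of known response go against it. GPD1, the glycerol 3-phosphate dehydrogenase induced by high osmolarity, was at -3.96 ± 0.97 (adjusted p = 0.0733) and HXT1, the transporter induced by high glucose, at -2.54 ± 0.26 (adjusted p = 0.0294), each below 0 on 5 of 5 arrays. With the dyes the other way round, all signs given here would turn. A gene was called when its p, adjusted by Benjamini-Hochberg over the 5447 genes tested, was under 0.05. On simulated data the fit missed changes as small as most of those seen here. The arrays of those data scattered independently, which the 2 sets here may not do, so that outcome does not measure power. A gene that was not called is in any case not shown to be the same in both media. Of the 45 genes 39 had a value on all 5 arrays and 4 on 4 arrays, which makes 43 tested. LSM2 had values on arrays 4 and 5 only and PRP19 on none. Both channels of all 45 spots were at least 2.2 times background on arrays 4 and 5, for which scanner files were used. LSM8 and PRP11 lay nearest to background.

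Most splicing and Sm/LSm genes lay slightly lower in the RNA labelled 20%. Their fitted ratios were small, with a median size of 0.18, the same as over all genes. No deposited value on any array reached 1 in size, and the most extreme was -0.98, for SNU23. Its scanner ratios, not used in the main fit, were -1.01 and -1.06 on arrays 4 and 5. The median fitted ratio was -0.14, against 0.00 for all genes tested. The fitted ratio was below 0 for 31 of 43 genes, or 72.1%, against 49.6% of all genes. Of the 43, 15 were lower on every array with a value, or 34.9% against 19.4% of all genes. Only 2, LSM6 and PRP11, were higher on every array, or 4.65% against 17.2%. The median over these genes was -0.13, -0.16, -0.20, -0.05 and -0.11 on arrays 1 to 5, below 0 on each.

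Of the 43 genes tested, 1 was called, SNU23, which was lower. That is 2.33%, against 3.69% of all genes called in either direction and 1.45% called lower. None of the 43 was called higher in limma, where 2.24% of all genes were. At an unadjusted p under 0.05 there were 14 lower and 2 higher, or 32.6% and 4.65%, against 14.0% and 14.5% of all genes. These shares describe a list whose genes were named for shared function and are given without a test. The shares of all genes are also the measure for the counts of each particle and list below. With 3.69% of all genes called, none called is the usual outcome in particles of 3 to 11 genes. It need not be so for the longer lists.

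**Figure D1:**
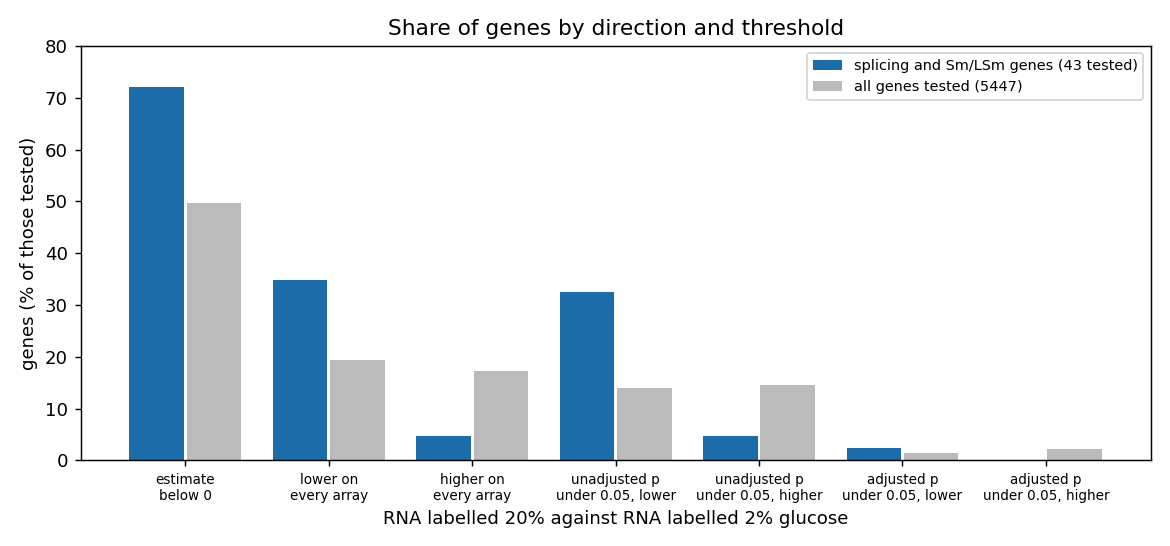
Percentage of genes (vertical axis) in each direction and past each threshold, for the 43 splicing and Sm/LSm genes tested (blue bars) and all 5447 genes tested (grey bars). The blue bars exceed the grey ones for lower values, at 34.9% against 19.4% for genes lower on every array, and fall short of them for higher values, at 4.65% against 17.2%.

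**Figure D2:**
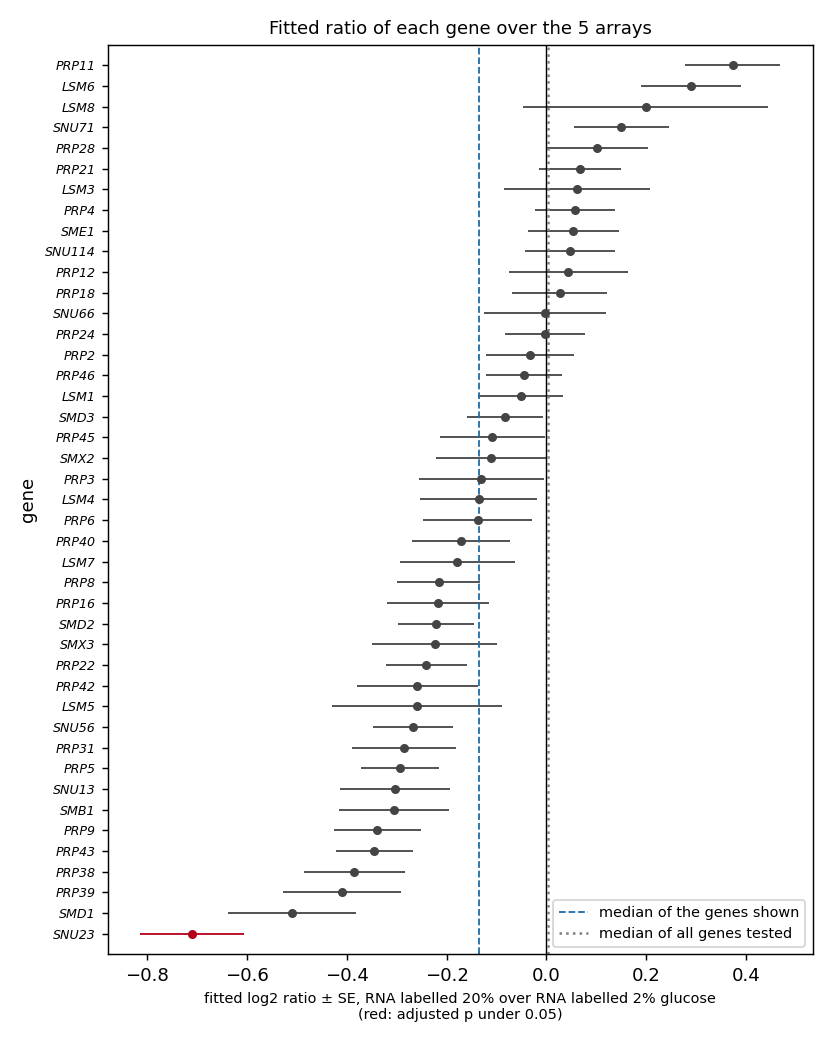
Fitted log2 ratio, RNA labelled 20% over RNA labelled 2% glucose, over the 5 arrays (points, with bars of 1 SE) for each of the 43 genes tested, in order of the ratio. SNU23, in red, is the only gene past an adjusted p of 0.05, and the median of the genes shown (dashed, -0.14) lies below that of all genes tested (dotted, 0.00).

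The protein genes of the U4/U6.U5 tri-snRNP, the particle that carries the catalytic RNAs into the spliceosome, held both the lowest gene and genes near 0. SNU23 encodes a zinc finger protein of the tri-snRNP. Its log2 ratio was -0.64, -0.55, -0.49, -0.84 and -0.98 on arrays 1 to 5, so that every array was low. The fitted ratio was -0.71 ± 0.10 (n = 5, limma adjusted p = 0.0425), or 1.64-fold lower in the RNA labelled 20%. Leaving out any 1 array ended the call, with fitted ratios from -0.82 to -0.60 and adjusted p from 0.0571 to 0.182. With the 2 sets of arrays (1 to 3, and 4 and 5) as a random block the adjusted p was 0.131. Fitted within the sets, SNU23 passed in arrays 1 to 3 (adjusted p = 0.0171) and in arrays 4 and 5 (0.00133, with no dye term).

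PRP38, whose product acts with Snu23 in activating the assembled spliceosome, was at -0.15, -0.32, -0.66, -0.39 and -0.42 on arrays 1 to 5. All arrays were below 0, with a fitted ratio of -0.38 ± 0.10 that did not pass (limma adjusted p = 0.0812). SPP381, a further partner of Prp38 that was looked up after the values of the other two were seen, was at -0.10 ± 0.10 (limma adjusted p = 0.551). PRP31, whose product binds U4 RNA together with Snu13, was at -0.02, -0.16, -0.26, -0.50 and -0.46, lowest on arrays 4 and 5 (fitted -0.29 ± 0.10). SNU13, which also binds box C/D small nucleolar RNAs, was at -0.16, -0.37, -0.69, -0.22 and -0.13, lowest on array 3 (fitted -0.30 ± 0.11). PRP8, the large scaffold at the catalytic centre, was below 0 on every array (-0.18, -0.14, -0.48, -0.35 and -0.06) and was fitted at -0.22 ± 0.08. None of these last 3 passed (adjusted p from 0.147 to 0.161).

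The other 6 genes grouped here with the tri-snRNP were fitted between -0.14 and 0.06. PRP6, which bridges U5 to U4/U6, was fitted at -0.14 ± 0.11, and PRP3, a U4/U6 protein, at -0.13 ± 0.13. PRP24, grouped here because its product anneals U4 to U6 and not as a part of the tri-snRNP, was at -0.0032 ± 0.08 (-0.13, -0.07, 0.05, 0.07 and 0.07 on arrays 1 to 5). SNU114, the GTPase of U5, was at 0.05 ± 0.09 and PRP4 at 0.06 ± 0.08. SNU66 was fitted at -0.0024 ± 0.12, which averages -0.18, -0.27 and -0.10 on arrays 1 to 3 and 0.32 and 0.24 on arrays 4 and 5. Its arrays therefore fell on both sides of 0 by set.

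The 5 genes of U1 snRNP, which recognises the 5′ splice site, had fitted ratios below 0 except for SNU71, with none called. At an unadjusted p under 0.05 in limma 2 were lower, or 40% against 14.0% of all genes. PRP39 was at -0.31, -0.49, -0.80, -0.17 and -0.29, low on every array and lowest on array 3, with a fitted ratio of -0.41 ± 0.12 (limma adjusted p = 0.0955). SNU56 was at -0.18, -0.36, -0.35, -0.12 and -0.28, with a fitted ratio of -0.27 ± 0.08 (adjusted p = 0.103). PRP42, a relative of Prp39 in the same particle, was at 0.06, -0.17, -0.09, -0.58 and -0.46. It was near 0 on arrays 1 to 3 and low on arrays 4 and 5 (fitted -0.26 ± 0.12, adjusted p = 0.221). PRP40, which links U1 to proteins at the branch site, was fitted at -0.17 ± 0.10. SNU71 was at 0.15 ± 0.10 and was below 0 on array 1 alone (-0.10).

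The 3 subunits of the SF3a part of U2 snRNP, which binds the branch site, had fitted ratios on both sides of 0. None was called. At an unadjusted p under 0.05 in limma 1 was lower and 1 higher, or 33.3% each, against 14.0% and 14.5% of all genes. PRP9 was at -0.10, -0.39, -0.45, -0.33 and -0.38, below 0 on every array (fitted -0.34 ± 0.09). PRP11 was at 0.55, 0.17, 0.24, 0.42 and 0.51, above 0 on every array, and had the highest fitted ratio of the 43 genes, 0.37 ± 0.10. PRP9 and PRP11 each missed the threshold with a limma adjusted p of 0.0777. Their partner PRP21 was at 0.07 ± 0.08, with values from -0.14 to 0.25. The PRP11 spot was among the dimmest, at 3.46 and 3.43 times background on array 4 and at 3.21 and 2.20 times on array 5. Whether its low signal bears on the ratio was not tested.

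Of the 6 spliceosomal helicases 4 were lower on every array, or 66.7% against 19.4% of all genes. None was called, and 3 were lower at an unadjusted p under 0.05 in limma, or 50.0% against 14.0% of all genes. PRP43, whose product takes apart the spent spliceosome and also acts in ribosome assembly, was at -0.50, -0.31, -0.39, -0.28 and -0.29. The 5 arrays lay close together, and the fitted ratio of -0.34 ± 0.08 had a limma adjusted p of 0.0643, the smallest after that of SNU23. PRP5, which helps U2 onto the branch site, was at -0.20, -0.24, -0.25, -0.36 and -0.39 (fitted -0.29 ± 0.08, adjusted p = 0.0851). PRP22, which releases the spliced mRNA, was at -0.12, -0.23, -0.40, -0.22 and -0.24 (fitted -0.24 ± 0.08, adjusted p = 0.129). PRP16, which remodels the spliceosome between its 2 reactions, was fitted at -0.22 ± 0.10. PRP2, which activates it for the first reaction, was at -0.03 ± 0.09, and PRP28, which exchanges U1 for U6 at the 5′ splice site, at 0.10 ± 0.10.

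The genes of the Prp19 complex and of the second splicing step with a value were near 0. PRP45 was at -0.11 ± 0.11, PRP46 at -0.05 ± 0.08 and PRP18, a second-step factor, at 0.03 ± 0.10. PRP19 itself, the ubiquitin ligase that names the complex, has no value in the deposited table on any array. Its spots on arrays 4 and 5 carry no flag and were bright, from 30.0 to 45.8 times background, and the scanner files give ratios of 0.32 and 0.09 there, which were not used in the fit. The scanner files mark this spot with the amplification code N, and the sources used here do not explain it. Of 112 spots with that code 34 lack a value on every array, against 30 of 6049 spots with no code. PRP12/YME2 was at 0.04 ± 0.12.

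**Figure D3:**
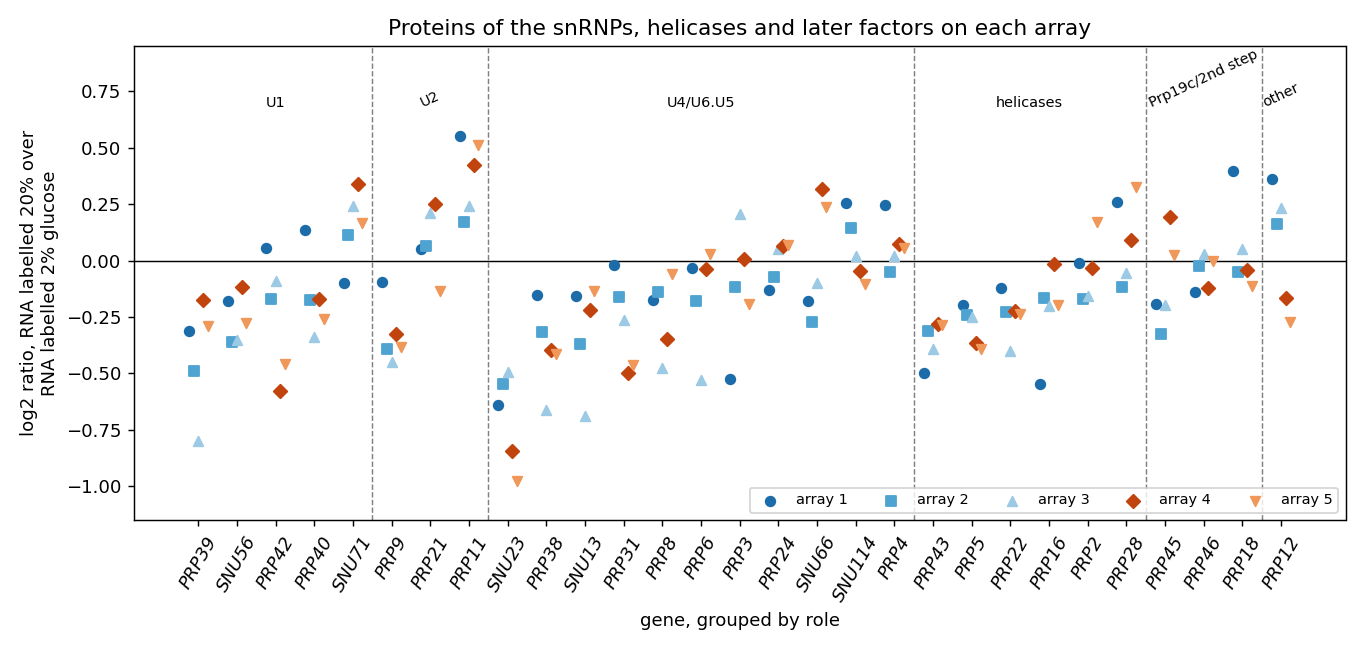
Log2 ratio, RNA labelled 20% over RNA labelled 2% glucose (vertical axis), on each of the 5 arrays (symbols) for the genes of U1, U2 and U4/U6.U5 proteins, helicases, the Prp19 complex and second step, and PRP12/YME2, ordered within each group by fitted ratio. SNU23 sits between -0.98 and -0.49 on all arrays, PRP9 and PRP11 of the same particle lie on opposite sides of 0, and SNU66 is below 0 on arrays 1 to 3 and above it on arrays 4 and 5.

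The 7 Sm ring genes had a median fitted ratio of -0.22, and 6 of 7 fitted ratios were below 0, or 85.7% against 49.6% of all genes. None was called, and 3 were lower at an unadjusted p under 0.05 in limma, or 42.9% against 14.0% of all genes. SMD1, with no value on array 2, was at -0.31, -0.65, -0.70 and -0.47 on arrays 1, 3, 4 and 5. Its fitted ratio of -0.51 ± 0.13 was the lowest after SNU23, without passing (limma adjusted p = 0.0883). SMB1 was at -0.53, -0.45 and -0.38 on arrays 1 to 3 and at 0.0035 and -0.16 on arrays 4 and 5. With the set as a further term in the fit, this difference was not called (limma adjusted p = 0.116). The fitted ratio of SMB1 over the 5 arrays was -0.31 ± 0.11 (adjusted p = 0.145). SMD2, an intron-containing gene, was at -0.35, -0.12, -0.27, -0.20 and -0.22 (fitted -0.22 ± 0.08, adjusted p = 0.134). SMX3, which encodes the F subunit, was at -0.09, -0.05, -0.41 and -0.27 on arrays 1, 3, 4 and 5 and was fitted at -0.22 ± 0.12. The remaining subunits were closer to 0, with SMX2 (G) at -0.11 ± 0.11 on 4 arrays, SMD3 at -0.08 ± 0.08 and SME1 (E) at 0.05 ± 0.09. Members of 1 ring thus spanned fitted ratios from -0.51 to 0.05.

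SMD1 and PRP38 are neighbours on their chromosome and overlap by 6 bases at their ends in RefSeq (assembly R64). Both were below 0 on every array with a value. LSM5 overlaps the neighbouring ORF YER145C-A by 239 bases. Whether the spots separate the transcripts of such pairs was not tested.

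The Lsm ring genes showed no common direction. Of the 7 tested, 4 fitted ratios were below 0 and 3 above, with a median of -0.05 and none called. At an unadjusted p under 0.05 in limma 1 was higher, or 14.3% against 14.5% of all genes. LSM6, a subunit of both rings, was at 0.13, 0.09, 0.31, 0.48 and 0.46, above 0 on every array (fitted 0.29 ± 0.10, adjusted p = 0.134). LSM1, found in the cytoplasmic ring alone, was at 0.08, -0.31, -0.02, 0.10 and 0.0036, with a fitted ratio of -0.05 ± 0.09. LSM8, found in the nuclear ring alone, was at -0.48, 0.34, 0.69 and -0.05 on arrays 1 to 4. It had the widest spread of the 43 genes, a fitted ratio of 0.20 ± 0.24, and spots between 2.46 and 3.05 times background. The values of both subunits that tell the rings apart fell on either side of 0.

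Array 1 was the lowest for LSM3, LSM4, LSM7 and LSM8, but not for the other Lsm genes tested. The median over the 7 tested was -0.48, -0.12, -0.02, 0.07 and 0.12 on arrays 1 to 5. The fitted difference between the sets (arrays 4 and 5 minus arrays 1 to 3) had a median of 0.37 over the 7 and 0.01 over all genes. It was below 0 for 14.3% of the 7, against 48.7% of all genes, and was called for none. LSM3 was at -0.51 on array 1 and between 0.02 and 0.39 on the others (fitted 0.06 ± 0.15). LSM4 was at -0.59 there and between -0.24 and 0.08 elsewhere (fitted -0.14 ± 0.12). For LSM5 arrays 2 and 3 stood apart, with 0.15 on array 1, -0.65 and -0.74 on arrays 2 and 3, and 0.01 and -0.01 on arrays 4 and 5 (fitted -0.26 ± 0.17). LSM7, like LSM2 and SMD2 a gene with an intron, was at -0.54, -0.26, -0.35, -0.02 and 0.15 (fitted -0.18 ± 0.12). LSM2 was at -0.14 and -0.23 on arrays 4 and 5.

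**Figure D4:**
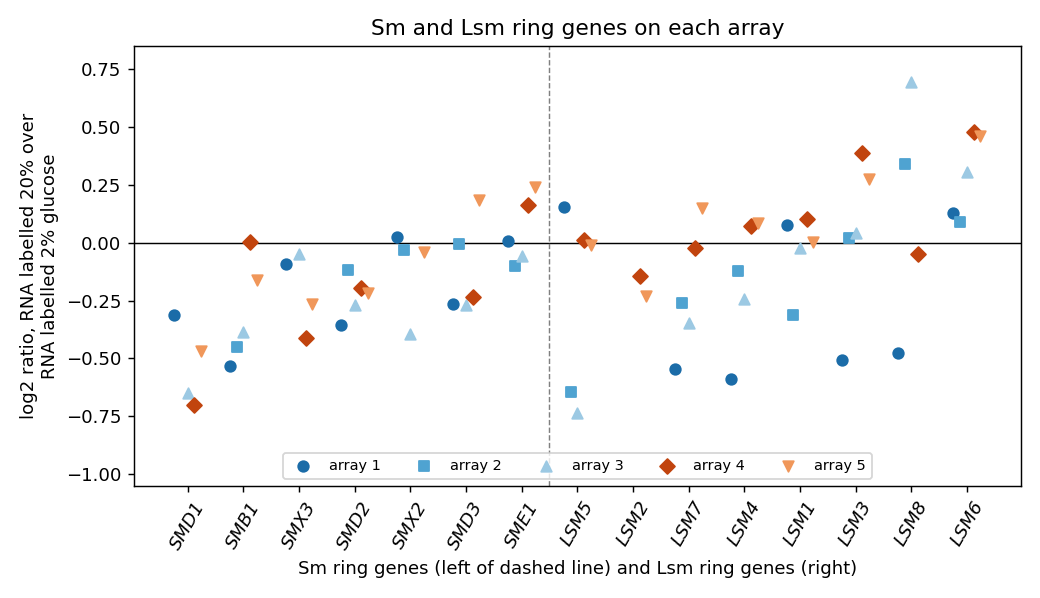
Log2 ratio, RNA labelled 20% over RNA labelled 2% glucose (vertical axis), on each array (symbols) for the genes of the Sm ring (left of the dashed line) and of the Lsm rings (right), ordered by ratio. SMD1 is below -0.30 on all 4 arrays with a value, LSM6 is above 0 on all 5, and LSM3 and LSM4 are lowest on array 1.

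Over all genes, arrays of different sets resembled each other less than arrays of the same set. There the correlation of ratios was 0.95 between arrays 4 and 5, 0.60 to 0.86 among arrays 1 to 3 and 0.26 to 0.37 between the sets. Across the splicing and Sm/LSm genes (40 to 43 per pair) it was 0.86, 0.25 to 0.83 and 0.25 to 0.53, so that these ranges overlapped: array 1 was no closer to arrays 2 and 3 (0.32 and 0.25) than arrays 2 and 3 were to arrays 4 and 5 (0.42 to 0.53). These are correlations across genes, which are not independent replicates. The labels do not say how the sets differ, and no cause of the gap was tested.

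The difference between the sets, as a further term in the fit, passed for 0 of 43 of these genes and for 12.8% of all genes in limma, with 7 of the 43 at an unadjusted p under 0.05, where 31.6% of all genes were. Without array 1 it passed for 14 of the 43, or 32.6% against 45.2% of all genes, and with each of the other arrays left out for 0. With 1 array left out that fit has at most 1 residual degree of freedom, so its calls depend mostly on the spread borrowed from other genes. On simulated data the fit over 5 arrays made no calls for set differences larger than any of the 43 fitted here. The spread of those data was taken without a set term and so held the gap between the sets. They therefore cannot tell how small a difference this fit would find. A gene that was not called is not shown to match between the sets. In the fit over 5 arrays the 4 genes with the smallest p, picked after their values were seen, were SNU66, PRP12/YME2, PRP42 and LSM7. SNU66 averaged -0.18 (SD 0.09, n = 3) in the first set against 0.28 (SD 0.06, n = 2) in the second, with a limma adjusted p of 0.0637. PRP12/YME2 ran the other way, averaging 0.25 (SD 0.10) and then -0.22 (SD 0.07), with an adjusted p of 0.0779. PRP42 was nearer 0 in the first set, at -0.07 (SD 0.12), than in the second, at -0.52 (SD 0.09; adjusted p = 0.0973). LSM7 was lower in the first, at -0.38 (SD 0.15), than in the second, at 0.07 (SD 0.12; adjusted p = 0.0983). Of the 43 genes with a mean in both sets, 23 were below 0 in both, 6 above 0 in both and 14 had opposite signs. The same counts were not made over all genes, so these do not set the splicing and Sm/LSm genes apart.

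When a term for the set was added to the fit, which takes that difference out of the spread, 13 of the 43 genes were called for the glucose label, or 30.2% against 29.7% of all genes. Of these 11 were lower, or 25.6% against 13.3%, and 2 were higher, or 4.65% against 16.4%. The lower ones were SNU23 (-0.74 ± 0.07, adjusted p = 0.00165), SMD1, SMB1, PRP5, PRP9, PRP31, PRP38, PRP39, PRP42, PRP43 and SNU56. The higher ones were PRP11 (0.39 ± 0.08, adjusted p = 0.0205) and LSM6 (0.32 ± 0.07, adjusted p = 0.0211). These p-values rest on the scatter of arrays within 2 sets, which may be technical. They do not count the sets as the units of replication. With the set as a random block, 0 of the 43 genes and 1 of all 5447 genes were called.

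Within arrays 1 to 3 alone 3 of 41 genes passed, all lower: SNU23, PRP39 and SMB1. That is 7.32%, against 17.4% of all genes, 5.96% called lower and 11.5% called higher. Within arrays 4 and 5 alone, fitted with no dye term, 21 of 42 passed, or 50.0% against 54.4% of all genes. Of these 15 were lower, or 35.7% against 26.6%, and 6 were higher, or 14.3% against 27.9%. The higher ones were LSM3, LSM6, PRP11, SME1, SNU66 and SNU71. SNU23 and PRP39 were lower past the threshold in each set. With 1 residual degree of freedom in either set alone, those p-values depend mostly on the spread that limma borrows from other genes.

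**Figure D5:**
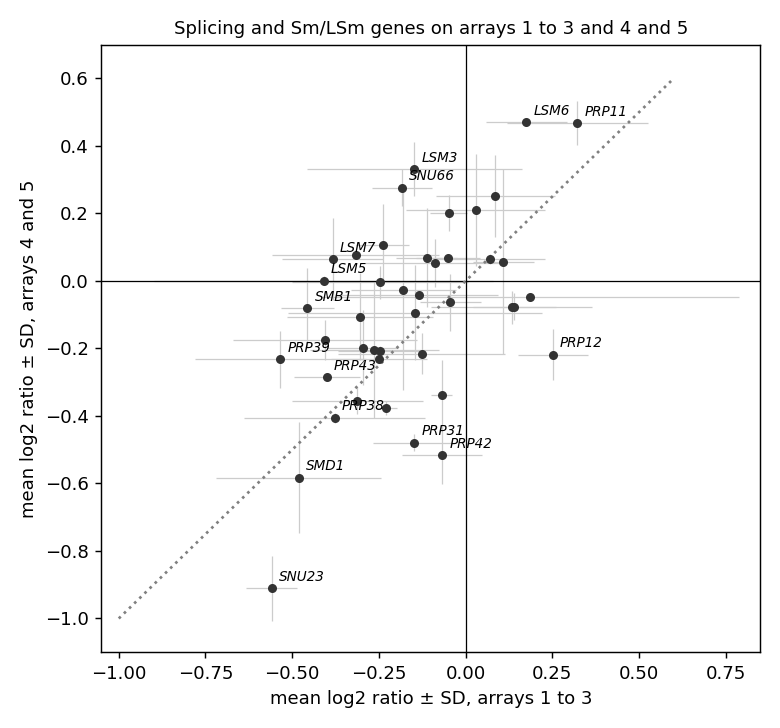
Mean log2 ratio on arrays 1 to 3 (horizontal axis) against arrays 4 and 5 (vertical axis) for the 43 genes with a value in both sets, with bars of 1 SD where a set holds more than 1 value; the dotted line marks equal ratios and some genes are named. SNU23 and SMD1 lie at the lower left, LSM6 and PRP11 at the upper right, and SNU66, PRP42 and PRP12/YME2 lie off the line.

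Other genes of the spliceosome and of linked RNA pathways were counted in the same fit. Among 46 further spliceosome genes tested, 36 fitted ratios were below 0, or 78.3% against 49.6% of all genes, and the median was -0.10. None was called in limma. At an unadjusted p under 0.05 there were 11, of which 10 were lower, or 21.7% against 14.0% of all genes. CWC24 (-0.47 ± 0.12), SPP382, which activates Prp43 (-0.37 ± 0.10), and ECM2 (-0.26 ± 0.08) were the lower ones with the smallest p. DIB1, a tri-snRNP protein, was at 0.40 ± 0.10. Their limma adjusted p lay between 0.0777 and 0.0979.

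Core and assembly factors of small nucleolar RNPs, which share Snu13 with the tri-snRNP, had a median of -0.33 over 15 genes. Of these 14 were below 0, or 93.3% against 49.6% of all genes. BCD1, needed for box C/D assembly, was the only one called (-0.44 ± 0.08, limma adjusted p = 0.0492). NOP1, the yeast fibrillarin, was at -0.47 ± 0.09 (adjusted p = 0.054), NAF1 at -0.37 ± 0.08 and NHP2 at -0.36 ± 0.08. All 22 nuclear exosome, TRAMP and related genes tested had fitted ratios below 0, against 49.6% of all genes, with a median of -0.23. None was called, and 11 were lower at an unadjusted p under 0.05 in limma, or 50.0% against 14.0% of all genes. CSL4, RRP42, MTR4 and SEN1 had the smallest p there, at -0.42 ± 0.09, -0.31 ± 0.08, -0.42 ± 0.11 and -0.30 ± 0.08.

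The 23 decapping and 5′ to 3′ decay genes, which include the partners of the Lsm1 ring, had a median of -0.06 with none called. At an unadjusted p under 0.05 in limma 1 was lower, or 4.35% against 14.0% of all genes, and 0 were higher. PAT1, which binds the Lsm1 ring, was at 0.12 ± 0.09, the deadenylase POP2 at -0.23 ± 0.09, CAF130 at -0.24 ± 0.13 and EDC2 at -0.22 ± 0.14. Of 18 cap-binding and mRNA export genes none was called, and their median was -0.09. At an unadjusted p under 0.05 in limma 5 were lower and 1 higher, or 27.8% and 5.56%, against 14.0% and 14.5% of all genes. THP2 of the THO complex was at -0.35 ± 0.08, GLE1 at -0.28 ± 0.08, THP1 at -0.28 ± 0.09 and GBP2 at -0.23 ± 0.08.

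Markers of stationary phase cells were tested for 9 of the 12 genes on the array and had a median of 0.21, with values that differed between the sets of arrays. Of the 9 fitted ratios 7 were above 0 and 2 below, or 22.2% below against 49.6% of all genes. FMP45 was called lower (-0.84 ± 0.10, limma adjusted p = 0.0422), and HSP26 (0.84 ± 0.31), SNZ1 (0.73 ± 0.30) and SNO1 (0.90 ± 0.49) were not called. The median of the 9 on arrays 1 to 5 was -0.29, 0.03, 0.05, 0.59 and 0.83. The difference between the sets was called for 5 of the 9, all higher on arrays 4 and 5, or 55.6% against 12.8% of all genes. The part of such cells, carried over from the overnight culture, in the ratios of the splicing and Sm/LSm genes was not tested.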

How the data were processed

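Values come from the deposited table of log2 ratios for 5 two-colour arrays, each with a median near 0; the sources used here do not say how the authors normalized them. The deposited scanner files of arrays 4 and 5 hold spot and background intensity medians and a log2 ratio, per the file headers, and a flag, used as a quality score. Values of 10 or more in size on arrays 4 (258) and 5 (262) were divided by 10, after which they correlated with the scanner ratios at 0.991 and, with the sign opposed, -0.964, against 0.775 and -0.770 as deposited. None of the splicing and Sm/LSm genes was among them. By the dye labels the table is 2% over 20% glucose on both arrays, and all values were multiplied by -1; arrays 1 to 3 could not be checked in this way.

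The arrays hold 5373 to 5804 values, and their number limits the precision. ORFs with 2 spots (13) were averaged. The limma package 3.58.1 (lmFit, eBayes; R 4.3.3) estimated each ratio with a dye term (left out on arrays 4 and 5 alone) for genes with values on at least 4 arrays in both dye orientations; tests were two-sided. The fit was tested on simulated data, where it made no calls for changes as small as most of those reported. It also made none for differences between sets larger than any fitted for the splicing and Sm/LSm genes. The simulated spread came from a fit without a set term, so it held the gap between the sets, and it was drawn independently for each array. These outcomes are therefore no measure of the power of the fit on the arrays themselves. RefSeq (R64) named 5705 of 6205 ORFs; positions are left out because no build is named. The genes and lists were chosen with earlier results of these data known. Named were all Sm and Lsm ring genes, called genes, the 8 highest and 8 lowest, other genes as parts of their particle, and up to 4 of each further list by p. Alternatives changed the dye and set terms, arrays, filters, decimal repair, normalization, source of values and spread.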

Additional observations from a re-analysis of the deposited data

Results flagged for a closer look

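On array 3 the Sm protein gene SMX2 was at -0.39, while arrays 1, 2 and 5 lay between -0.04 and 0.03. Its gap to the other arrays was past the 95% limit of Dixon's test for 4 values. Of 43 genes screened in this way it was the only one, where chance passes about 1 in 20. Its spots on arrays 4 and 5 were between 2.93 and 4.94 times background, and array 4 has no value in the table.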

How the results depend on the processing

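The median ratio of the splicing and Sm/LSm genes stayed below 0 under all 20 alternatives, between -0.17 and -0.08. Their count of 1 called gene became 9 with no dye term, 13 with a set term, 0 with the set as a random block, 3 on arrays 1 to 3, 21 on arrays 4 and 5 with no dye term, 0 without any 1 replicate (0 to 0) and 0 with values as deposited. Under the same alternatives the 201 calls of all genes became 919, 1618, 1, 901, 2924, 0 to 103 (without 1 replicate) and 1, with 317 after quantile normalization and 129 with scanner ratios. Where counts were 0, 4 to 16 of the splicing and Sm/LSm genes had an unadjusted p under 0.05 in limma. For the difference between sets, 0 of these genes became 3 with no dye term and 0 to 14 without 1 replicate; the 696 of all genes became 1183, 69 to 2485, 326 as deposited and 413 without values of 10 or more. The dye term itself was called for 0 of 5447 genes. At an unadjusted p under 0.05 in limma it passed for 18 genes, with 0 of the splicing and Sm/LSm genes among them. With 5 arrays this does not show that the dyes behaved alike. The causes of these changes in count were not tested.

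Of 43 genes 27 kept their sign throughout, and 16, most fitted near 0, turned it somewhere. On arrays 4 and 5 alone, with no dye term, the turned values were 0.108 (PRP45), 0.078 (LSM4), 0.0006 (LSM5), -0.0784 (PRP18), 0.0533 (LSM1), -0.0767 (SNU114), 0.0669 (PRP24), -0.218 (PRP12/YME2), 0.065 (LSM7), 0.0691 (PRP2) and 0.277 (SNU66), of which PRP12/YME2 and SNU66 were called. On arrays 1 to 3 alone they were -0.0076 (PRP28), -0.106 (LSM3) and -0.0619 (SME1). With scanner ratios they were -0.0047 (PRP18), -0.0054 (PRP21), -0.018 (SME1) and -0.0179 (PRP4). PRP24 and SNU66 turned to 0.0068 and 0.0374 with a set term, 0.00404 and 0.0264 with the random block, and 0.0039 and 0.0047 with arrays centred on their median; SNU66 turned to 0.0006 with no dye term. Without 1 replicate the ranges that crossed 0 were -0.00917 to 0.213 (PRP28), -0.0388 to 0.0708 (PRP18), -0.131 to 0.0277 (LSM1), -0.0147 to 0.11 (SNU114), -0.0421 to 0.182 (LSM3), -0.0379 to 0.0315 (PRP24), -0.0646 to 0.153 (PRP12/YME2), -0.119 to 0.0525 (PRP2), -0.0307 to 0.139 (SME1) and -0.13 to 0.125 (SNU66).

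No paired analysis was possible because there is 1 group of arrays and no other group to share replicate numbers with; each ratio already pairs both media within its array.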
